A study of Mus musculus with 8 samples.

Results

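The 10 genes described here encode enzymes that build triglyceride: Gpam, Agpat2, Agpat3, Lpin1, Lpin2, Lpin3, Dgat1, Dgat2, Mogat1 and Mogat2. They were taken by symbol from a table of 19348 genes, and all 10 were found. Libraries for RNA-seq came from liver and from epididymal white adipose tissue (eWAT, the epididymal fat pad) of C57BL/6 male mice aged 12 weeks that ate a normal diet and were fasted for 16 h before death. Each tissue had 2 libraries labelled Crtc1-/- and 2 labelled Crtc1+/+, 8 in all. The Crtc1-/- line carries a whole-body deletion made with CRISPR/Cas9, and the Crtc1+/+ mice were littermates from crosses of heterozygotes. CRTC1 is a coactivator of the transcription factor CREB. The study used the sequencing to ask how loss of Crtc1 alters lipid metabolism in both tissues.

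In the glycerol 3-phosphate pathway, a GPAT enzyme such as that of Gpam adds a first fatty acid to glycerol 3-phosphate, and an AGPAT enzyme adds another to make phosphatidate. Lipins remove the phosphate to give diacylglycerol, and DGAT1 or DGAT2 adds the last fatty acid to complete triglyceride. MOGAT1 and MOGAT2 reach diacylglycerol from monoacylglycerol instead, a route best known from the intestine. Adipocytes store the product in lipid droplets, whereas hepatocytes also export it in lipoproteins.

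Several facts of the libraries bear on what follows. Totals ranged from 16560070 to 19721464 counts. Crtc1 itself was at 58.5 and 33.6 CPM in Crtc1-/- labelled eWAT and 32.6 and 33.7 CPM in Crtc1+/+ labelled eWAT (log2 fold change 0.48, SE 0.37, adjusted p = 0.396, edgeR). In liver it was at 22.1 and 18.0 CPM against 11.7 and 9.86 CPM (log2 fold change 0.89, SE 0.27, adjusted p = 0.184, edgeR). In neither tissue was Crtc1 lower with the Crtc1-/- label, and genotypes are given here as labelled. The deletion was aimed at some of the exons, and the deposited counts cover the whole gene, so these values do not test whether the targeted exons were missing. The study examined that by PCR across those exons and by Western blot, which were not analysed here. CPM are counts scaled to the library total, with TMM factors set within a tissue.

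Markers of other cell types moved with genotype in eWAT. All 11 adipocyte markers were detected in all 4 eWAT libraries. Together they held 4.12% and 1.96% of counts in Crtc1-/- labelled eWAT, led by Fabp4, Cfd and Cidec, but 0.222% and 0.355% in Crtc1+/+ labelled eWAT. The 20 epididymis markers, led by Gpx5, Spag11b and Lcn8, held 9.44% and 10.9% of counts in Crtc1+/+ labelled eWAT, with none at 0. In Crtc1-/- labelled eWAT they held 0.00245% and 0.00139%, with 7 and 5 of them at 0. The 13 hepatocyte markers, led by Alb, Apoa1 and Apoa2, held 10.3% of counts in Crtc1-/- labelled eWAT replicate 2, against 0.111% in replicate 1, 0.0756% to 0.621% in the other eWAT pair and 19.1% to 23.5% in liver. The 5 endothelial markers, led by Cdh5 and Pecam1, held 0.310% and 0.172% against 0.0216% and 0.0232%. The 7 macrophage markers, led by C1qa, held 0.131% and 0.0532% against 0.0341% and 0.0189%. The 4 skeletal muscle markers held 0.0928% and 0.0643% against 0.0446% and 0.0269%. Of these only Acta1 was higher in both Crtc1-/- labelled libraries (15112 and 7526 counts against 3651 and 1703), and the rest overlapped. The 4 enterocyte markers held at most 0.00353% in any library. In bulk tissue, fewer cells of a type and less RNA per cell cannot be told apart, and the part of these marker differences in the results below was not tested. Pearson correlations of log2 CPM across genes between the replicates were 0.877 and 0.930 in eWAT (Crtc1-/- and Crtc1+/+ label), and 0.975 and 0.981 in liver. Genes are not independent replicates.

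The genes lie on 8 chromosomes, in the GENCODE annotation of GRCm38. Gpam (NCBI Gene 14732) is on chromosome 19 from 55067268 to 55127238, Agpat2 (67512) on chromosome 2 from 26593057 to 26604417, and Agpat3 (28169) on chromosome 10 from 78269178 to 78352489, all on the minus strand. Lpin1 (14245) is on the minus strand of chromosome 12 from 16535669 to 16610966, Lpin2 (64898) on the plus strand of chromosome 17 from 71182560 to 71249817, and Lpin3 (64899) on the plus strand of chromosome 2 from 160880670 to 160906002. Dgat1 (13350) is on the minus strand of chromosome 15 from 76502015 to 76511953 and Mogat1 (68393) on the plus strand of chromosome 1 from 78510991 to 78538173. Dgat2 (67800) and Mogat2 (233549) are neighbours on the minus strand of chromosome 7, from 99153658 to 99182719 and from 99219084 to 99238619, with 36364 bp between them.

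RefSeq promoter windows (GRCm38.p6) were matched for 7 of the 10 members, in 11 windows; Dgat1, Dgat2 and Mogat2 had no entry. The 250 bases before the start were searched on both strands for the cAMP response element TGACGTCA, its short form TGACG, the E-box CACGTG, the nuclear receptor motif AGGTCA and the GC box GGGCGG. The full element contains the short form. The windows of Agpat2 and Mogat1 are shown because both genes were higher in Crtc1-/- labelled eWAT, and that of the internal Gpam start because it held the most copies of the short element, although Gpam did not pass the test. Capitals mark any motif found.
Agpat2, chr2:26604418-26604667, minus strand: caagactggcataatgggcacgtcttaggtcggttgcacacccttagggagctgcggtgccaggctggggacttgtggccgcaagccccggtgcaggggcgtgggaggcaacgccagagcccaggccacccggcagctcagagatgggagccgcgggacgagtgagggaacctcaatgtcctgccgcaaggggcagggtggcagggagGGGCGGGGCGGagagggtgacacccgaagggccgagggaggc
Mogat1, chr1:78510810-78511059, plus strand: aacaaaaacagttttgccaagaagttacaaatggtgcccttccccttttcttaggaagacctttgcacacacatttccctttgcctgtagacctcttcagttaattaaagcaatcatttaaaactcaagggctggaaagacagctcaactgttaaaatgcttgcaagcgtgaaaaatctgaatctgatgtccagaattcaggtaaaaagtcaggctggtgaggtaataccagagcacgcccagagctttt
Gpam, internal start, chr19:55099478-55099727, minus strand: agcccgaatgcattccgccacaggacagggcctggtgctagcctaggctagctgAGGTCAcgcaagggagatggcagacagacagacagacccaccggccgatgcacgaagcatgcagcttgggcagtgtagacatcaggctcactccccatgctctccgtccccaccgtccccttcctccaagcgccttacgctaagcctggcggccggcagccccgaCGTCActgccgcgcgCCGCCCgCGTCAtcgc
The Agpat2 window lies just outside the gene, the end of the Mogat1 window overlaps the GENCODE gene, and the Gpam window lies within the gene. No member window held the full element, which 1.55% of all 32851 windows did. The short form was in 2 of 11 member windows, the internal Gpam start with 2 copies and a Lpin2 start with 1 copy, against 17.8% of all windows. The E-box was in 1 of 11 (the same Lpin2 start, overlapping the short element; 6.02% of all windows), the nuclear receptor motif in 2 of 11 (Lpin1 and the internal Gpam start; 14.0%) and the GC box in 5 of 11 (32.7%). The Agpat2 window held 2 overlapping GC boxes, and the Mogat1 window held none of the motifs. A match describes these letters only.

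In eWAT, 5 of the 10 members rose in the libraries labelled Crtc1-/- and none fell (edgeR quasi-likelihood test, adjusted p below 0.05). They were Agpat2, both DGAT genes and both MOGAT genes. Among all 15391 genes tested, 1875 passed (12.2%), and 6.65% passed as higher. At the study's threshold, a log2 fold change beyond 1 in either direction and a raw p below 0.01, Lpin1 joined them in the edgeR fit. That made 6 of 10, against 15.9% of all genes. The study applied this threshold to limma, and limma with either pseudocount left 5 members past it, as did edgeR with library-size scaling. The median log2 fold change was 1.89 for the 10 members and -0.05 for all genes tested. With library-size scaling the all-gene median was -0.35 and the member median 1.59, and the share of called genes that were higher went from 54.6% to 35.3% (42.8% with upper-quartile scaling). The same 5 members were called under both. In the limma fit of log2(FPKM + 0.1), Dgat1 was not called (adjusted p = 0.0581).

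These calls rested on both libraries labelled Crtc1+/+. Without replicate 1 of that group, the log2 fold changes of Agpat2, Dgat1, Dgat2 and Mogat1 were 2.25 to 3.5 and the adjusted p of the 5 members ranged from 0.154 to 0.172 (edgeR). Without replicate 2 of that group they were 2.35 to 4.29, with adjusted p from 0.224 to 0.247. In both cases none of the genes tested was called, with 3452 and 2614 at an unadjusted p under 0.05. Without Crtc1-/- labelled eWAT replicate 2, the library with hepatocyte markers, the same 4 were 2.41 to 4.20, and all 5 and Lpin1 passed. Without replicate 1 of that group 6 members passed as well. In each of these fits a lone library was assumed to vary like the other group.

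**Figure D1:**
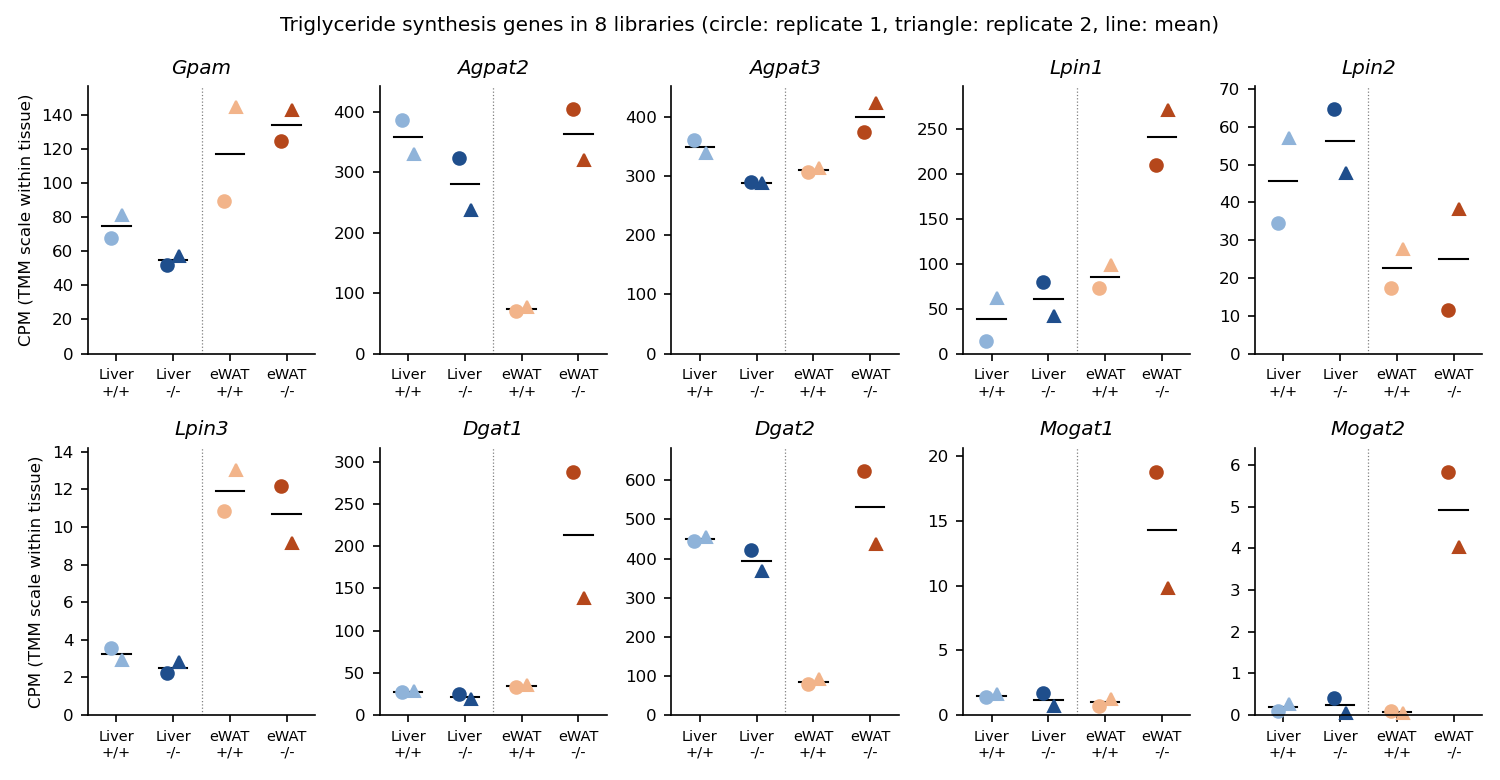
CPM (TMM scale within a tissue, linear axis from 0) of the 10 members in each of the 8 libraries, with circles for replicate 1, triangles for replicate 2 and lines for the mean of 2; the dotted line separates liver from eWAT, which were scaled apart. Agpat2, Dgat1, Dgat2, Mogat1 and Mogat2 sit higher in both eWAT libraries labelled Crtc1-/- than in both labelled Crtc1+/+, and in liver no member passed the test.

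For the first step, Gpam, the mitochondrial GPAT, was at 125 and 143 CPM in Crtc1-/- labelled eWAT (134 ± 12.9, SD, n = 2) and at 89.3 and 145 CPM in Crtc1+/+ labelled eWAT (117 ± 39.2). The groups overlapped. Its log2 fold change was 0.19 (SE 0.34, adjusted p = 0.717, edgeR) and became -0.12 with library-size scaling.

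For the second step, Agpat2, whose human counterpart is mutated in a congenital lipodystrophy, was at 405 and 321 CPM in Crtc1-/- labelled eWAT (363 ± 59.5, SD, n = 2). In Crtc1+/+ labelled eWAT it was at 71.1 and 76.9 CPM (74.0 ± 4.11). The groups were far apart, with a log2 fold change of 2.30 (SE 0.32, adjusted p = 0.0226, edgeR). Agpat3 was at 375 and 424 CPM against 307 and 314 CPM. Its groups did not overlap, but the difference of 0.36 on the log2 scale (SE 0.31) did not pass the test (adjusted p = 0.437, edgeR). The FPKM ratio of Agpat2 to Agpat3, which does not depend on library scaling, was 3.27 and 2.30 in Crtc1-/- labelled eWAT and 0.757 and 0.794 in Crtc1+/+ labelled eWAT, so the more abundant of this pair was Agpat2 in one genotype and Agpat3 in the other.

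Among the lipins, Lpin1, the main lipin of adipose tissue, was at 210 and 270 CPM in Crtc1-/- labelled eWAT (240 ± 42.7, SD, n = 2) and at 73.0 and 98.0 CPM in Crtc1+/+ labelled eWAT (85.5 ± 17.7). The groups did not overlap. The log2 fold change of 1.49 (SE 0.33) had an unadjusted p of 0.00622 and an adjusted p = 0.0507 (edgeR). Lpin2, abundant in liver, was at 11.6 and 38.2 CPM against 17.3 and 27.7 CPM, with the Crtc1-/- libraries on either side of the others. Its log2 fold change was 0.14 (SE 0.65), and -1.01 (adjusted p = 0.252, edgeR) without Crtc1-/- replicate 2, which had the higher Lpin2 and the hepatocyte markers. Lpin3 was at 12.2 and 9.16 CPM against 10.8 and 13.0 CPM, and the groups overlapped (log2 fold change -0.16, SE 0.39). It was 0.14 in the limma fit of FPKM.

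For the last step, Dgat1 was at 288 and 139 CPM in Crtc1-/- labelled eWAT (214 ± 105, SD, n = 2) and at 33.5 and 35.0 CPM in Crtc1+/+ labelled eWAT (34.2 ± 1.08). Every Crtc1-/- value was well above the others, although the Crtc1-/- pair differed widely. The log2 fold change was 2.64 (SE 0.45, adjusted p = 0.0302, edgeR). Dgat2 was at 624 and 438 CPM (531 ± 131) against 79.4 and 91.6 CPM (85.5 ± 8.63), again without overlap. Its log2 fold change was also 2.64 (SE 0.37, adjusted p = 0.0229, edgeR). DGAT1 and DGAT2 are unrelated in sequence and catalyse the same reaction. The FPKM ratio of Dgat1 to Dgat2 was 0.658 and 0.451 in Crtc1-/- labelled eWAT and 0.608 and 0.538 in Crtc1+/+ labelled eWAT, and overlapped.

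On the monoacylglycerol route, Mogat1 was at 18.8 and 9.79 CPM in Crtc1-/- labelled eWAT (14.3 ± 6.37, SD, n = 2) and at 0.722 and 1.24 CPM in Crtc1+/+ labelled eWAT (0.984 ± 0.369). The groups were far apart, with a log2 fold change of 3.85 (SE 0.64, adjusted p = 0.0291, edgeR). Mogat2 had 106 and 58 counts in Crtc1-/- labelled eWAT and 2 and 1 counts in Crtc1+/+ labelled eWAT. Relative to library totals the ratio was 54.4, with a 95% counting interval from 18.3 to 266 that covers counting error only (adjusted p = 0.0230, edgeR). The enterocyte markers held 0.00142% and 0.00283% of counts in Crtc1-/- labelled eWAT and 0.00223% and 0.00184% in Crtc1+/+ labelled eWAT. These sums overlapped, but single markers did not move together. Cdh17 had 3 and 1 counts against 245 and 234, and Vil1 had 250 and 28 against 121 and 72. Fabp2 had 6 and 469 against 20 and 5, the 469 in the library with hepatocyte markers, and 450 to 631 in liver. The part of these markers in the result was not tested.

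**Figure D2:**
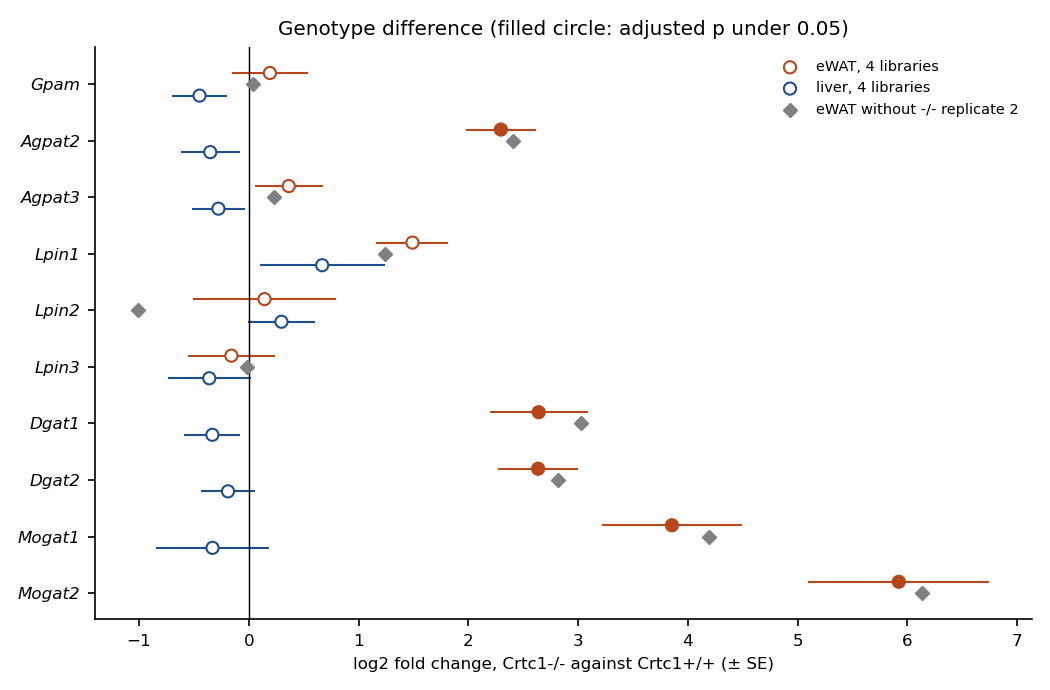
Log2 fold change of each member between libraries labelled Crtc1-/- and Crtc1+/+ in eWAT (brown) and liver (blue), with bars of 1 SE, filled circles for an adjusted p under 0.05 in edgeR, and grey diamonds for eWAT without Crtc1-/- replicate 2. The 5 filled circles are all in eWAT at 2.30 or more, no liver value passed, and the diamond of Lpin2 lies at -1.01 on the other side of 0.

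Set against adipocyte RNA in the same library, 8 of the 10 members were lower in both Crtc1-/- libraries. Of these, Agpat2, Agpat3, Lpin1, Dgat1 and Dgat2 had been higher in both by CPM. Agpat2 had 9.68 and 13.4 counts per 1000 adipocyte marker counts in Crtc1-/- labelled eWAT and 36.3 and 23.7 in Crtc1+/+ labelled eWAT. Dgat1 had 6.88 and 5.79 against 17.1 and 10.8, and Dgat2 had 14.9 and 18.3 against 40.5 and 28.3. For these 3 genes the ratio was lower in both Crtc1-/- libraries, while their CPM were higher. Gpam was among the lowest relative to the markers, at 2.97 and 5.95 against 45.6 and 44.7 per 1000, and Agpat3, Lpin1, Lpin2 and Lpin3 were lower too, with ratios of the means between 0.0705 (Lpin3) and 0.241 (Lpin1). Mogat1 was slightly higher, at 0.449 and 0.408 against 0.369 and 0.384, a ratio of 1.14. Mogat2 had 0.139 and 0.168 against 0.0492 and 0.0160, the last 2 resting on 2 and 1 counts. Such a ratio within a library shows unequal change of members and markers, not which of them changed. The adipocyte markers held 4.12% and 1.96% of counts against 0.222% and 0.355%, so any gene that rose less than they did comes out lower. The ratio was not taken for all genes, so the count of lower members has no background to compare with.

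**Figure D3:**
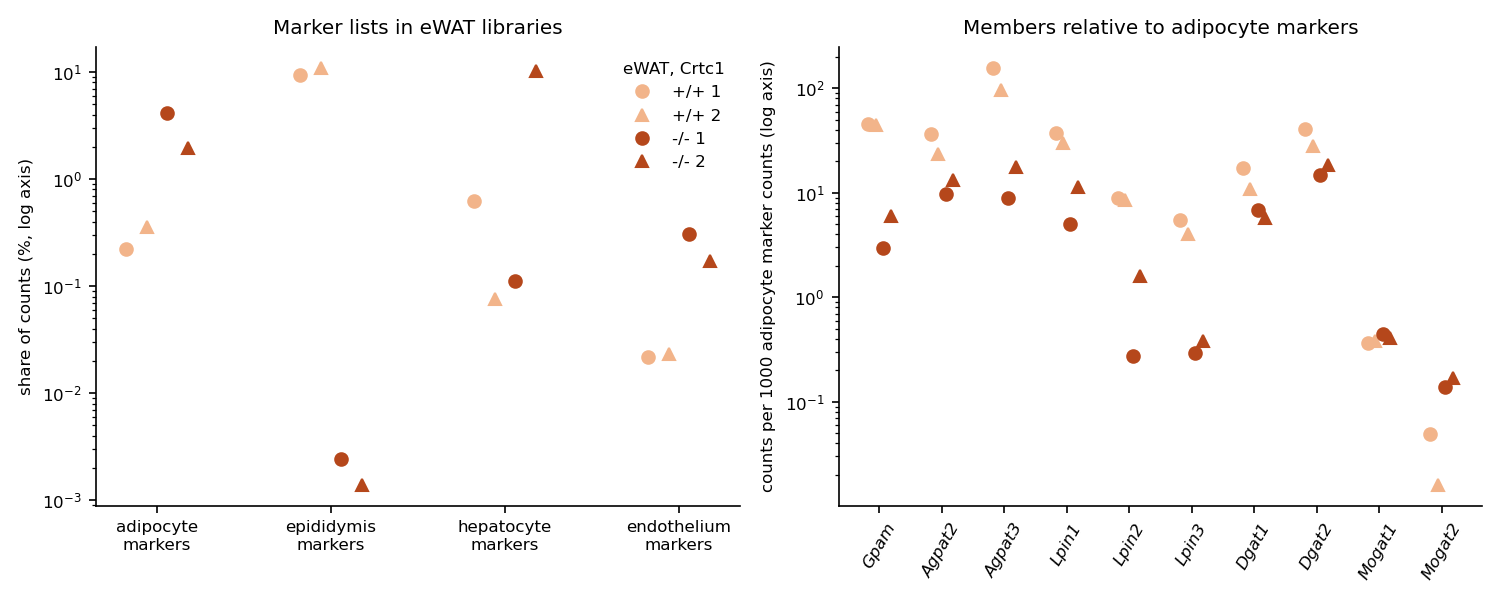
Left, share of counts held by 4 marker lists in the 4 eWAT libraries (percent, log axis); right, counts of each member per 1000 adipocyte marker counts in the same libraries (log axis). Adipocyte markers are higher and epididymis markers lower in both libraries labelled Crtc1-/-, and 8 members lie lower there per adipocyte marker count while Mogat1 and Mogat2 do not.

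In liver, none of the 9 members tested passed (0 of 9 at an adjusted p under 0.05 in edgeR, against 10 of 11707 genes, 0.0854%). At an unadjusted p under 0.05 there were 0 of 9, against 2029 of 11707 genes. DESeq2 and limma on log2(FPKM + 1) also called 0. At the study's threshold the count was 0 of 9 against 4.27% of all genes, and without Crtc1+/+ replicate 2 it was 1 (Lpin1, at 2.09). Mogat2, with 8 and 1 counts in Crtc1-/- labelled liver and 2 and 5 in Crtc1+/+ labelled liver, was too low to be tested. Dgat2 was at 421 and 367 CPM in Crtc1-/- labelled liver and 444 and 455 CPM in Crtc1+/+ labelled liver, slightly lower in both (log2 fold change -0.19, SE 0.25). Agpat2 was at 324 and 238 CPM against 387 and 330 CPM (-0.35, SE 0.27), also lower in both. Agpat3 was at 290 and 288 CPM against 361 and 339 CPM (-0.28, SE 0.24), the opposite order to eWAT. Gpam was at 52.1 and 57.1 CPM against 67.9 and 81.2 CPM, without overlap, and had the lowest p of the 9 (log2 fold change -0.45, SE 0.25, adjusted p = 0.372, edgeR).

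Lower in abundance, Dgat1 was at 24.4 and 19.1 CPM in Crtc1-/- labelled liver and 26.9 and 27.9 CPM in Crtc1+/+ labelled liver, lower in both (log2 fold change -0.33, SE 0.26). Lpin1, a gene that varies with feeding and time of day, was at 79.5 and 41.4 CPM against 14.2 and 61.9 CPM, with a wide replicate spread in both groups (0.67, SE 0.57). Its log2 fold change was -0.03 without Crtc1+/+ replicate 1. Lpin2 was at 64.8 and 47.7 CPM against 34.6 and 56.9 CPM (0.30, SE 0.31, and -0.01 without that library), and overlapped. Lpin3 was at 2.25 and 2.80 CPM against 3.54 and 2.94 CPM (-0.36, SE 0.38), slightly lower in both. Mogat1 was at 1.68 and 0.700 CPM against 1.39 and 1.63 CPM (-0.33, SE 0.51), and overlapped. The median of the 9 was -0.33, against 0.00 for all genes tested.

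The genotype difference itself was larger in eWAT than in liver for 4 of 10 members, in an edgeR fit of all 8 libraries. Among all 15587 genes, 1081 were called in either direction (6.94%), and 589 were called higher. The 4 were Agpat2, Dgat1, Dgat2 and Mogat1, with differences of the log2 fold changes from 2.56 to 4.08. Of all genes called, 54.5% were higher, and 37.2% with library-size scaling, under which Dgat2 alone of the 4 passed (adjusted p = 0.0480, edgeR) and the other 3 had adjusted p from 0.0508 to 0.0564. Mogat2 had an adjusted p = 0.0704 (edgeR). Leaving out either eWAT library labelled Crtc1+/+ or any liver library took the adjusted p of all 4 above 0.05, to between 0.0576 and 0.115, while leaving out either eWAT library labelled Crtc1-/- kept them between 0.00371 and 0.0375. This comparison shares its libraries with those within each tissue.

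Between tissues, the scaling decided much of the picture. In Crtc1+/+ mice the median log2 difference of eWAT against liver over all genes was 0.61 and was 2.0 with library-size scaling, and the share of called genes that were higher in eWAT went from 63.9% to 90.5%. With TMM scaling 6 of 10 members were lower in Crtc1+/+ labelled eWAT, against 3091 of 15587 genes called lower. In either direction 54.9% of genes were called. Agpat2 (log2 difference -3.49, SE 0.36, adjusted p = 0.000803, edgeR) and Dgat2 (-3.61, SE 0.36, adjusted p = 0.000760, edgeR) passed under all alternatives run, between -2.09 and -3.76. For Lpin2 (-2.24), Agpat3 (-1.39), Mogat1 (-1.83) and Dgat1 (-0.89) the call was lost with library-size scaling, which put Agpat3 at 0.01 and Dgat1 at 0.51. The same scaling called Lpin3 (2.06, adjusted p = 0.00319, edgeR) and Gpam (0.83, adjusted p = 0.0442, edgeR) higher in eWAT. Mogat1 also lost it with upper-quartile scaling (adjusted p = 0.0537), and Dgat1 with that scaling, without a filter and with limma (0.0587 to 0.463). The calls of Mogat1 and Dgat1 were lost without any 1 of the 4 Crtc1+/+ libraries (adjusted p 0.0677 to 0.152, edgeR), that of Agpat3 without either eWAT library or liver replicate 1 (0.0600 to 0.0652), and that of Lpin2 without either eWAT library or liver replicate 2 (0.0642 to 0.104). Dgat1 lost it as well without either liver library labelled Crtc1-/- (0.0627 and 0.0633).

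Among mice labelled Crtc1-/-, 4 of 10 members differed between the tissues, against 27.8% of genes, and the members called were not all lower in eWAT. Dgat1 was higher in eWAT by 1.97 on the log2 scale (SE 0.33, adjusted p = 0.00673, edgeR). Mogat1 was higher by 2.25 (SE 0.58, adjusted p = 0.0295) and Mogat2 by 3.01 (SE 0.93, adjusted p = 0.0499), and Lpin2 was lower, at -2.42 (SE 0.63, adjusted p = 0.0305, all edgeR). Over all genes the median difference was 0.20, or 1.33 with library-size scaling, and 68.0% of called genes were higher in eWAT, or 98.5% with that scaling. With that scaling Mogat1 was at 3.45, and Agpat2, Agpat3 and Dgat2, between -0.94 and -0.82, were at 0.21 to 0.28. Under it Lpin2 lost its call (-1.42, adjusted p = 0.0521, edgeR), while Gpam (1.10, adjusted p = 0.0266) and Lpin3 (1.92, adjusted p = 0.00762) were called higher in eWAT. Without liver Crtc1-/- replicate 2 none of the 4 passed (adjusted p 0.0547 to 0.158, edgeR), and without liver Crtc1-/- replicate 1 or either liver Crtc1+/+ library Dgat1 alone did (0.0196 to 0.0405). Mogat1 and Mogat2 had adjusted p = 0.118 and 0.112 without eWAT Crtc1-/- replicate 1, and without replicate 2 all 4 passed, Lpin2 at -3.65. Mogat2 also lost the call without either eWAT Crtc1+/+ library (0.0684 and 0.0723), without a filter (0.0582), with upper-quartile scaling (0.05004) and with the replicate number as a block (0.0526).

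Levels of different genes were compared by FPKM, which divides by transcript length. In Crtc1+/+ labelled liver the order was led by Agpat2 (288 ± 34.6 FPKM, SD, n = 2), Dgat2 (210 ± 1.99) and Agpat3 (92.9 ± 5.26). Below them came Dgat1 (17.8 ± 0.262), Gpam (12.4 ± 1.44), Lpin2 (8.50 ± 2.77) and Lpin1 (6.96 ± 6.14), of which Gpam, Lpin2 and Lpin1 lay within each other's spread. Mogat1 (1.41 ± 0.141), Lpin3 (1.0 ± 0.127) and Mogat2 (0.110 ± 0.0707) were lowest. In Crtc1-/- labelled liver the first 4 places were the same, at 244 ± 44.2, 190 ± 15.5, 80.9 ± 3.74 and 15.5 ± 1.87 FPKM, with Agpat2 and Dgat2 apart by less than the sum of their SDs.

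In Crtc1+/+ labelled eWAT the order began with Agpat3 (88.2 ± 1.77 FPKM), Agpat2 (68.4 ± 0.919) and Dgat2 (45.3 ± 3.54), each separated from the next by more than its spread. Dgat1 (25.9 ± 0.191), Gpam (22.0 ± 6.84) and Lpin1 (17.9 ± 3.22) followed, with neighbours not separated beyond their spread. In Crtc1-/- labelled eWAT Agpat2 (276 ± 79.3) and Dgat2 (230 ± 86.5) led, before Dgat1 (134 ± 81.7) and Agpat3 (98.6 ± 4.37), and no neighbours among these 4 were separated beyond their spread. Lpin1 (39.9 ± 1.97), Gpam (20.2 ± 0.750) and Mogat1 (12.7 ± 6.68) came next, and Lpin2, Lpin3 and Mogat2 lay between 2.77 and 4.14 FPKM.

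The makeup of each step, as a share of the FPKM of its enzymes in the same library, differed between tissues and does not depend on library scaling. Dgat1 made up 7.32% to 7.95% of DGAT FPKM in the 4 liver libraries and 31.1% to 39.7% in the 4 eWAT libraries, with no overlap between tissues and no separation by genotype in eWAT (35.4 ± 6.08 and 36.4 ± 1.98%, SD, n = 2). Lpin1 made up 86.9% and 83.0% of lipin FPKM in Crtc1-/- labelled eWAT, 66.9% and 66.2% in Crtc1+/+ labelled eWAT, and 25.5% to 51.8% in liver. The eWAT genotypes did not overlap, and neither did the tissues. At the AGPAT step, Agpat2 held 60.04% and 59.5% in Crtc1-/- labelled eWAT and 23.2% and 27.0% in Crtc1+/+ labelled eWAT, against 68.0% to 75.3% in liver. Agpat1, which is not a member, held 42.0% and 35.7% in Crtc1+/+ labelled eWAT and 17.9% and 12.1% in Crtc1-/- labelled eWAT. At the GPAT step Gpam was not the leading form in any group, with 18.7% to 41.1% over the 8 libraries, and Gpat4 held the largest mean share, from 51.5% (Crtc1+/+ labelled eWAT) to 71.0% (Crtc1+/+ labelled liver).

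**Figure D4:**
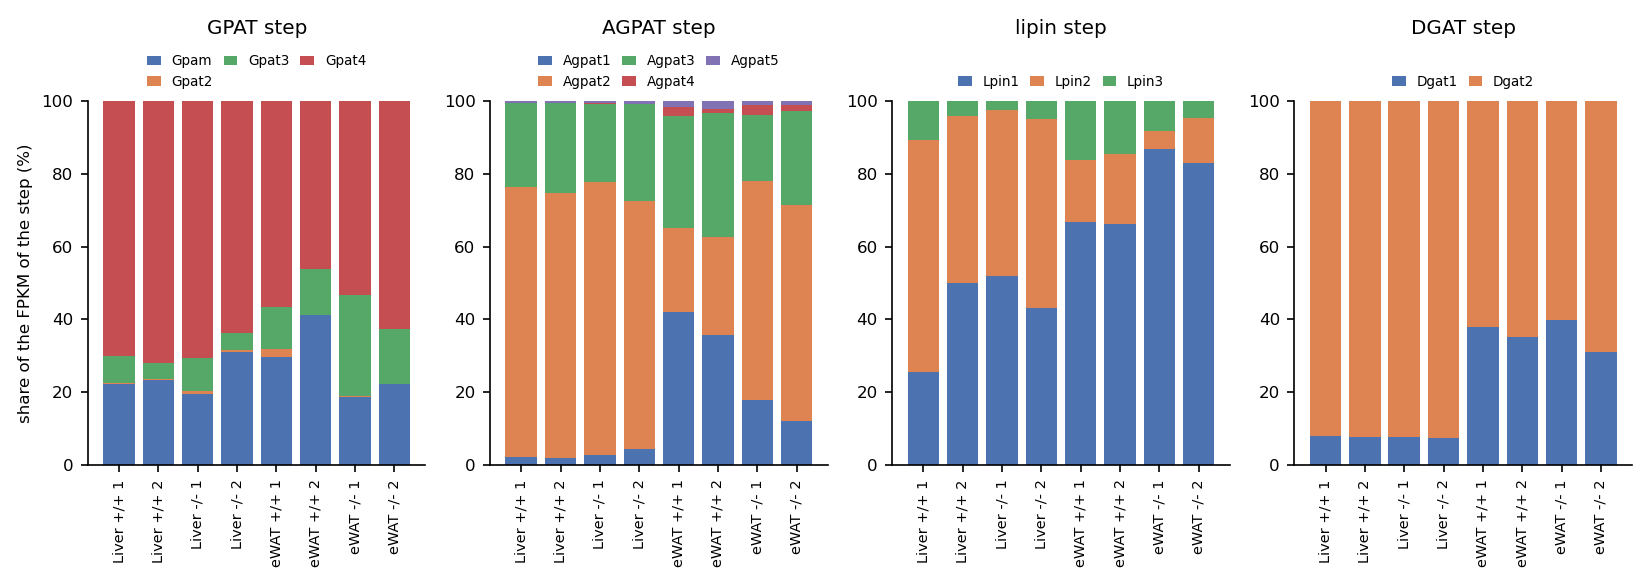
Share (percent) of each enzyme in the summed FPKM of its step, for the GPAT, AGPAT, lipin and DGAT steps, with 1 stacked bar for each of the 8 libraries. Dgat1 takes under 8% of the DGAT step in liver and over 31% in eWAT, Agpat2 is the largest AGPAT share everywhere except in Crtc1+/+ labelled eWAT, and Lpin1 is largest in Crtc1-/- labelled eWAT.

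Other genes around the pathway were followed in 6 lists, 33 genes in all. In eWAT 7 of 33 rose and 1 fell, against the 12.2% of all genes called, with a median log2 fold change of 0.75. In liver 0 of 30 tested passed (edgeR), and the median was -0.07. Of these 30, 5 had an unadjusted p under 0.05, against 2029 of all 11707 genes tested in liver. Of the 5 genes that supply glycerol 3-phosphate, 3 rose in eWAT. Pck1, the enzyme of glyceroneogenesis, was at 2708 and 3332 CPM against 67.8 and 176 CPM (log2 fold change 4.63, SE 0.69, adjusted p = 0.0260, edgeR). Aqp7, the glycerol channel of adipocytes, was at 353 and 291 CPM against 14.0 and 16.8 CPM (4.38, SE 0.34, adjusted p = 0.0155, edgeR). Gpd1, which makes glycerol 3-phosphate, was at 1310 and 748 CPM against 197 and 204 CPM (2.36, SE 0.44, adjusted p = 0.0367, edgeR). In none of these did the groups overlap.

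In the phospholipid branches, 2 of 7 rose and 1 fell in eWAT. Cds1 and Cds2 both turn phosphatidate into CDP-diacylglycerol, yet Cds1 fell by 3.74 on the log2 scale (14.5 and 5.35 CPM against 109 and 157 CPM, SE 0.60, adjusted p = 0.0275, edgeR). Cds2 rose by 1.76 (257 and 219 CPM against 67.0 and 73.7 CPM, SE 0.29, adjusted p = 0.0286, edgeR). Chpt1, which turns diacylglycerol into phosphatidylcholine, rose by 2.27 (418 and 307 CPM against 57.8 and 92.7 CPM, SE 0.40, adjusted p = 0.0329, edgeR). Among 5 phosphatase genes Plpp1 rose (179 and 114 CPM against 25.5 and 21.0 CPM; log2 fold change 2.66, SE 0.36, adjusted p = 0.0216, edgeR). Among 5 genes of lipid droplets and triglyceride export Fitm2, which acts in droplet budding, rose (74.8 and 64.1 CPM against 5.88 and 10.2 CPM; 3.11, SE 0.41, adjusted p = 0.0208, edgeR). None of the 5 acyl-CoA synthetases and none of the 6 other GPAT and AGPAT genes passed in eWAT, with 3 and 2 at an unadjusted p under 0.05. Among all 15391 genes tested there, 5130 were at an unadjusted p under 0.05.

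By FPKM, Pck1 (mean 571 over the 4 eWAT libraries), Gpd1 (222) and Acsl1 (148), an acyl-CoA synthetase, were the most abundant of these genes in eWAT with both genotypes pooled. Neither genotype alone had that order. In Crtc1+/+ labelled eWAT Pck1 (54.7) lay below Acsl1 (133), Agpat1 (107) and Gpd1 (84.6). In Crtc1-/- labelled eWAT Pck1 (1087) and Gpd1 (359) led, but Acsl1 (163) lay below Chpt1 (205). In liver, also pooled, the most abundant were Pck1 (485), Gpd1 (249.1) and Pcyt2 (199), an enzyme of phosphatidylethanolamine synthesis. Acsl1 in eWAT was at 672 and 663 CPM against 314 and 568 CPM (log2 fold change 0.60, SE 0.43). Pcyt2, abundant in liver, was at 50.7 and 266 CPM against 43.6 and 35.7 CPM in eWAT, the higher value in the library with hepatocyte markers.

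**Figure D5:**
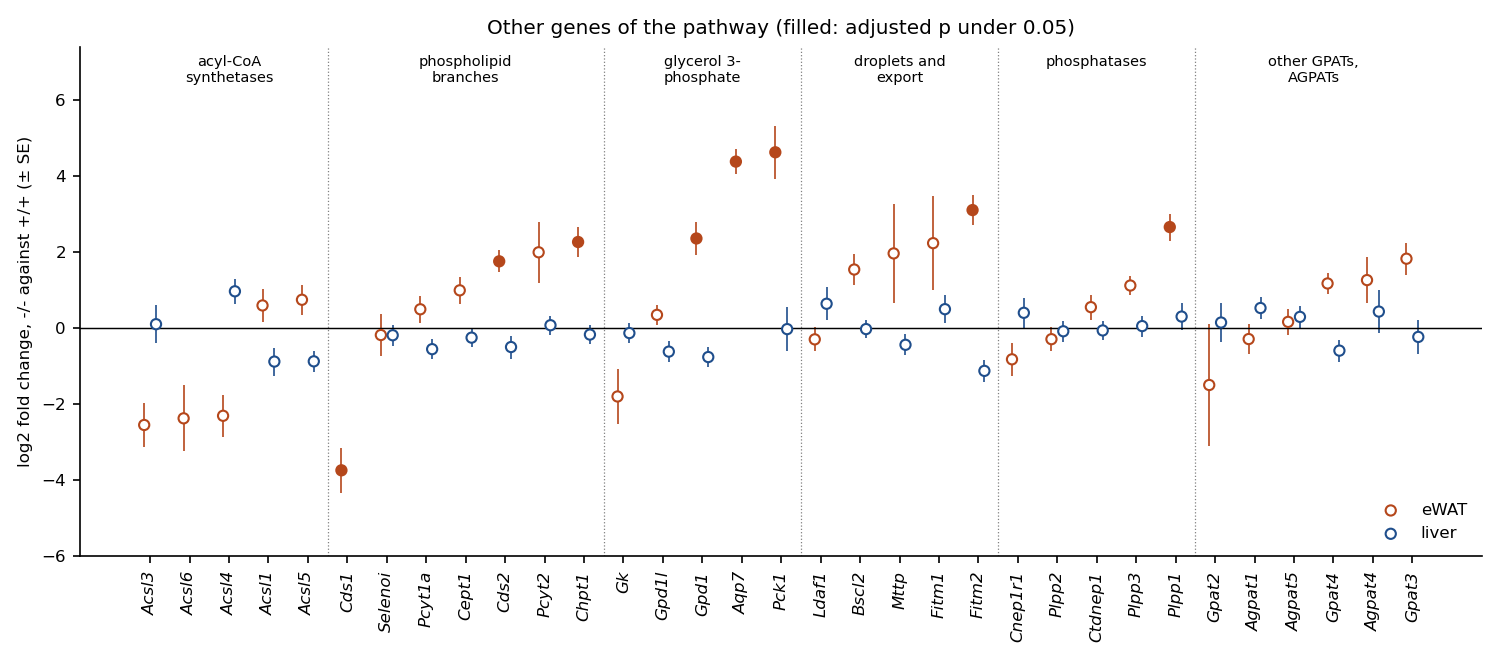
Log2 fold change between libraries labelled Crtc1-/- and Crtc1+/+ of the 33 other genes, by list, in eWAT (brown) and liver (blue), with bars of 1 SE and filled circles for an adjusted p under 0.05 in edgeR. Of the 8 filled circles, all in eWAT, Cds1 alone lies below 0.

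Over the 8 libraries, the genes with the most similar pattern of log2 CPM to Agpat2 were Pcx (Pearson r = 0.995), Dgat2 (0.990) and Epha2 (0.982), and to Dgat2 they were Agpat2, Pcx (0.990) and Epha2 (0.982). Mogat1 and Mogat2 correlated at 0.970 with each other, and both had Acp2 among their nearest 3 genes (0.981 and 0.988). Dgat1 correlated at 0.943 with Mogat1 but at 0.230 with Dgat2. The closest gene was Acss3 for Gpam (0.991), L3mbtl2 for Agpat3 (0.984), Kif5a for Lpin1 (0.965), Ttc38 for Lpin2 (0.970) and Lgals3bp for Dgat1 (0.991). For Lpin3, 2122 genes of 15587 had r over 0.95, for Dgat1 229 and for Gpam 147. Mogat1, Agpat2, Mogat2 and Dgat2 had 49, 43, 41 and 33 such genes, and Agpat3, Lpin2 and Lpin1 had 8, 6 and 3. These are descriptions over 8 libraries that share tissues and cell makeup.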

How the data were processed

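RNA was taken from liver and eWAT of 2 Crtc1-/- and 2 Crtc1+/+ mice, and replicate numbers came from the labels. Estimated counts per gene, not normalized, and FPKM of the same genes (scaled by transcript length and library total) were the values the authors deposited. The submitters' processing notes name HISAT, Bowtie2 and GRCm38.p6, and the counting tool is not given in the sources used here. All 80 member counts were whole numbers, while 5.44% to 9.98% of a library's values were not, and counts were rounded.

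Genotypes were compared within tissue, and tissues and the interaction in 1 fit of 8 libraries, with edgeR 4.0.16 (R 4.3.3; filterByExpr, TMM, quasi-likelihood test, Benjamini-Hochberg adjustment over all genes). SEs were derived from the F statistics. The scripts were tested on simulated data. Alternatives were upper-quartile and library-size scaling, DESeq2 1.42.0, no filter, limma 3.58.1 on quantile-normalized log2(FPKM + 1) or, for genotype, log2(FPKM + 0.1), all libraries in 1 fit for genotype, the replicate number as a block, and each library left out. A ratio of 1 to 3 counts has an exact 95% interval. Similarity used library-size CPM with a prior count of 2. The members, lists and markers were chosen with earlier results of these data known. Named were all members, listed genes called or among the 3 most abundant per tissue, up to 3 of the genes most like a member, Crtc1, and up to 3 genes per marker list. Agpat1 and Gpat4 were added after their values were seen. The 3 counts of a count floor correspond to 0.152 to 0.181 CPM, and with 2 libraries a group the spread between mice, not counting error, limits precision.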

Additional observations from a re-analysis of the deposited data

Results flagged for a closer look

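The change with genotype differed between eWAT and liver for 4 members by the interaction term of an edgeR fit of all 8 libraries. The difference of the log2 fold changes, eWAT minus liver, was 2.56 for Agpat2 (SE 0.47, adjusted p = 0.0251, edgeR), 2.86 for Dgat1 (SE 0.46, adjusted p = 0.0176, edgeR), 2.73 for Dgat2 (SE 0.47, adjusted p = 0.0212, edgeR) and 4.08 for Mogat1 (SE 0.83, adjusted p = 0.0344, edgeR). Both eWAT libraries labelled Crtc1-/- were above both labelled Crtc1+/+ for each. In the same eWAT libraries adipocyte markers held 4.12% and 1.96% of counts against 0.222% and 0.355%, and epididymis markers 0.00245% and 0.00139% against 9.44% and 10.9%. The part of these differences in the interaction was not tested.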

How the results depend on the processing

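Agpat2, Dgat1, Dgat2, Mogat1 and Mogat2 stayed higher in Crtc1-/- labelled eWAT under every alternative run, the first 4 at 1.87 to 4.29 on the log2 scale, and Dgat1 lost its call with limma on log2(FPKM + 0.1) (adjusted p = 0.0581). With the replicate number as a block 0 members and 0 of all genes were called there, with 5418 genes at an unadjusted p under 0.05, and the adjusted p of the 5 was 0.0543 to 0.0637 (edgeR). The block left members at 6 and 3 in the tissue comparisons and 3 in the interaction, and gave 82 genes in liver. The numbers were not taken as pairs: deviations of same-numbered libraries correlated at 0.0086 (eWAT) and 0.0516 (liver) between genotypes and at 0.0356 and 0.152 between tissues.

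Leaving out each library gave 0 to 6 members called in eWAT (0 to 3607 genes, 0 to 6 members at the study's threshold), 0 in liver (1 to 1409 genes, 0 to 1 member at that threshold), 2 to 6 members (4551 to 9203 genes) between tissues in Crtc1+/+, 0 to 4 (1561 to 6227 genes) in Crtc1-/-, and 0 to 4 (0 to 2293 genes) for the interaction. The interaction had 0 genes without either liver Crtc1+/+ library, with 2917 and 3235 at an unadjusted p under 0.05 (edgeR). DESeq2 called 4620 genes in eWAT, 311 in liver, 2056 for the interaction and 7 members between tissues in Crtc1-/-. The fit of all 8 libraries called 3861 genes in eWAT and 0 in liver (1536 at an unadjusted p under 0.05). In liver no filter gave 301 genes and limma 0 with either pseudocount (1799 and 1732 at an unadjusted p under 0.05), while limma gave 2533 for the interaction. Library-size scaling gave 7127 genes between tissues in Crtc1-/-, and 705 genes and 1 member for the interaction. The cause of these shifts was not tested.

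Single log2 values changed sign as follows, with the range over left-out libraries where one of them did it. In eWAT, Gpam was -0.0026 with upper-quartile scaling, -0.12 with library-size scaling and -0.0083 and -0.0064 with limma, and ranged from -0.091 (without Crtc1+/+ replicate 1) to 0.58. Lpin2 was -0.056 with upper-quartile scaling, -0.23 with library-size scaling and -0.056 with the block, and ranged from -1.01 (without Crtc1-/- replicate 2) to 0.76, with -0.09 without Crtc1+/+ replicate 1. Lpin3 was 0.14 and 0.18 with limma. In liver, Lpin1 ranged from -0.030 and Lpin2 from -0.012 (both without Crtc1+/+ replicate 1) to 2.09 and 0.70 (both without Crtc1+/+ replicate 2), and Mogat1 from -1.07 to 0.15 (without Crtc1-/- replicate 2). Between tissues in Crtc1+/+, library-size scaling gave Lpin1 1.36, Gpam 0.83, Agpat3 0.012 and Dgat1 0.51. Lpin1 was also 0.15 with upper-quartile scaling, 0.32 with limma and 0.29 with the block, and ranged from -0.76 to 1.38 (without liver replicate 2), with 0.13 without eWAT replicate 1, and Lpin3 was -0.30 with limma. In Crtc1-/-, library-size scaling gave Agpat2 0.21, Agpat3 0.28 and Dgat2 0.28. Gpam was -0.00069 with upper-quartile scaling, -0.035 with DESeq2 and -0.0065 with the block, and ranged from -0.18 (without eWAT Crtc1-/- replicate 2) to 0.19, with -0.05 without liver Crtc1-/- replicate 1. For the interaction, Lpin3 was -0.064 with upper-quartile and -0.14 with library-size scaling, and ranged from -0.028 (without liver Crtc1-/- replicate 1) to 0.38. Lpin2 ranged from -1.26 to 0.49 (without eWAT Crtc1-/- replicate 1), and Lpin1 from -0.67 (without liver Crtc1+/+ replicate 2) to 1.46. None of these values passed the test except Gpam between tissues in Crtc1+/+ with library-size scaling (adjusted p = 0.0442, edgeR).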
